A study of Mus musculus with 16 samples.

Results

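Atoh8, Dlx1, Dlx2, Msx1 and Msx2 are 5 transcription factor genes that were taken by symbol from a table of 55414 genes, and each was followed through the 16 RNA sequencing libraries of a BMP9 signalling experiment in mouse lung endothelial cells (MLECs). Of the 5 genes, 4 had enough reads to be tested; Msx2 did not. In KO cells the endoglin gene Eng had been deleted with 4-OH-tamoxifen, and Ctrl cells had received vehicle. The ligand was BMP9 in complex with soluble endoglin, sENG(M):BMP9, in Ctrl cells and prodomain-bound BMP9, pro:BMP9, in KO cells. Within 90 min of ligand, Atoh8 rose 12.4-fold in Ctrl and 12.3-fold in KO cells. Dlx2 rose by log2 fold changes of 3.26 in Ctrl and 2.98 in KO cells. Dlx1 rose by 1.84 and 1.28, calls that were lost without isolation 3. Msx1 was expressed in every library and was past the adjusted threshold in no comparison of the blocked fit, although its Ctrl response passed in 3 of 11 alternative fits, and Msx2 stayed at or under 9 counts throughout. Between KO cells with pro:BMP9 and Ctrl cells with sENG(M):BMP9, Atoh8 and Dlx2 were lower in KO cells in 4 of 4 isolations. Neither difference passed the adjusted threshold, and genotype and ligand form cannot be told apart.

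BMP9 is a circulating ligand of the TGF-β family that binds the type I receptor ALK1, encoded by Acvrl1, with type II receptors on endothelial cells. The receptors phosphorylate SMAD1 and SMAD5, which enter the nucleus with SMAD4 and switch on early target genes. Endoglin, encoded by Eng, is a co-receptor on the endothelial surface. Atoh8 is a basic helix-loop-helix (bHLH) factor distantly related to Drosophila atonal and is a known BMP-responsive gene of endothelial cells. The Dlx and Msx genes encode homeodomain factors that act downstream of BMPs in the developing face, limb, tooth and skull, and the Dlx genes lie in convergently transcribed pairs.

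MLECs came from 4 isolations from C57BL/6 mice that carried floxed Eng (Eng fl/fl), the ubiquitous tamoxifen-inducible Rosa26-CreERT2 and the Immorto transgene, an interferon-inducible immortalising gene. All cells shared these alleles. Cells were grown with interferon-γ and the TGF-β type I receptor inhibitor SB431542 in the medium. Both were left out of the medium before the overnight serum starvation that came ahead of treatment. KO cells had received 4-OH-tamoxifen and Ctrl cells vehicle. Ctrl cells were treated with PBS or with sENG(M):BMP9 (BMP9 in complex with soluble monomeric endoglin), and KO cells with PBS or with pro:BMP9 (BMP9 bound to its prodomain). Treatment lasted 90 min, with each ligand dosed to 0.2 ng/ml of mature BMP9. In the sENG(M):BMP9 treatment, soluble endoglin was in large excess to keep the complex stable. Each isolation supplied 1 library to each of the 4 groups. Effects of 4-OH-tamoxifen itself and of Eng loss cannot be told apart, nor can genotype and ligand form. The age of the mice is not given in the sources used here.

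Library totals ran from 14869115 to 17242117 counts. Eng in PBS-treated KO cells was at 8.51% to 14.5% of the Ctrl cells of the same isolation, and no KO library reached the level of a Ctrl library. With ligand, Eng in KO cells was at 16.7% to 23.3% of the Ctrl cells. Eng itself rose after ligand in both genotypes, by log2 fold changes of 0.48 for Ctrl and 1.23 for KO cells. The difference of these responses, KO minus Ctrl, was 0.75 and did not pass the adjusted threshold (edgeR adjusted p = 0.923). All 10 endothelial markers on the list were present in every library, with Pecam1 (CD31) at a mean of 792 TPM. TPM are counts corrected for gene length and scaled to the same total in every library. Libraries also held RNA of mural cell and fibroblast markers, whose summed levels ranged over the 16 libraries from 76.1 to 366 TPM and from 38.6 to 389 TPM. The mesothelial sum ran from 14.7 to 519 TPM and was led by Msln (mean 102 TPM) and Krt19 (72.6 TPM), and the epithelial sum of 126 to 422 TPM was led by Krt18 (232 TPM). Of the leukocyte markers, Cd68 was at a mean of 96.9 TPM and Lyz2 at 20.4 TPM. Some defining markers of these lists were at or near 0, with 0 counts of Sftpc (alveolar epithelium) and at most 4 of Epcam (epithelium) and 5 of Ptprc (leukocytes) in any library. In such bulk samples, fewer cells of a type and less RNA per cell cannot be told apart.

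The 5 genes lie on 4 chromosomes of GRCm39. Atoh8 has 3 exons on the minus strand at chr6:72183161-72212561. Dlx1 (plus strand, chr2:71358457-71364325) and Dlx2 (minus strand, chr2:71373752-71377098) have 3 exons each and face each other across a gap of 9426 bases. Msx1 (chr5:37977829-37981927) and Msx2 (chr13:53620920-53627110) have 2 exons each on the minus strand. The antisense gene Dlx1as covers all of Dlx1, and noncoding genes on the opposite strand also overlap Atoh8 and Msx2. In each case the canonical transcripts had 0 exon bases in common. Exons of other transcripts were not compared. The library kit kept strand, but the strand setting of the read counting is not given in the sources used here.

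Promoter windows of 300 bases (270 before to 30 from the start site) were read from the GRCm39 genome at the canonical transcript starts of GENCODE. The windows of the 2 genes with the largest responses, Atoh8 and Dlx2, are shown with that of Msx1, which did not pass in the blocked fit. Capitals mark the motifs GGCGCC, a GC-rich SMAD1/5 element, and CAGAC, a SMAD-binding element, both searched on both strands.
Atoh8, chr6:72212573-72212872, minus strand, GRCm39: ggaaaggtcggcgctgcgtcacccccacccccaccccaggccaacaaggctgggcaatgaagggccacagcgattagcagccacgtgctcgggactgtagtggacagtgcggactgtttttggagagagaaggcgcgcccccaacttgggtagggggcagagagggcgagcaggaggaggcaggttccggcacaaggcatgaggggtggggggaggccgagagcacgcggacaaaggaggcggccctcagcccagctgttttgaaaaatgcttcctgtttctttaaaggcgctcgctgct
Dlx2, chr2:71377073-71377372, minus strand, GRCm39: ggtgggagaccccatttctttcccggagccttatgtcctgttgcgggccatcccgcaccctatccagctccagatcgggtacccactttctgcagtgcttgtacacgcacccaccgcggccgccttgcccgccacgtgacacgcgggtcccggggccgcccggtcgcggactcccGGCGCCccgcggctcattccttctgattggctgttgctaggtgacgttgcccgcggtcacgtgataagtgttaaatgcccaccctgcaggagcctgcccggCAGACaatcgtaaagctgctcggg
Msx1, chr5:37981899-37982198, minus strand, GRCm39: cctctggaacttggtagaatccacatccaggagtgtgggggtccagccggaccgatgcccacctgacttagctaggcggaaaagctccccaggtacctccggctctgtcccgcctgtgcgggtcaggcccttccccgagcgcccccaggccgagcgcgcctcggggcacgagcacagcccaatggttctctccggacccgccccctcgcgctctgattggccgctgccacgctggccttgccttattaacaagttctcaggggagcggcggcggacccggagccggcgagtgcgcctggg

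GGCGCC was present in the window of Dlx2, where it begins at position -95, and in 0 of the other 4 windows. It was present in 11.5% of the 21757 promoters of protein-coding genes. CAGAC was likewise present in the Dlx2 window only among the 5, at position 7 counted from 1 at the start site, and in 48.2% of all promoters. The spaced BMP element (GGCGCC, any 5 bases, then GTCT) was in none of the 5 windows and in 0.0643% of all promoters. Its relaxed form (GNCGNC, any 5 bases, then GNCT, in 3.70% of promoters) and the homeodomain core TAATTG (8.49%) were also in none of the 5. The shares of G and C were 63.0% for Atoh8, 43.0% for Dlx1, 65.0% for Dlx2, 68.3% for Msx1 and 39.7% for Msx2, against a median of 53.7%. These are matches of letters in a short window and do not show binding.

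In PBS-treated Ctrl cells, the order of the 5 genes by length-corrected level was Atoh8, Msx1, Dlx2, Dlx1 and Msx2. Atoh8 stood at 14.9 ± 4.07 TPM and Msx1 at 5.50 ± 1.95 TPM (mean ± SD, n = 4), with no overlap between them. Dlx2 was at 1.72 ± 1.33 TPM and Dlx1 at 0.575 ± 0.375 TPM, and their ranges overlapped, although Dlx2 was above Dlx1 in 4 of 4 isolations. Msx2 was at 0.0869 ± 0.0375 TPM. After sENG(M):BMP9 the order changed: Atoh8 was at 182 ± 25.7 TPM, and Dlx2, at 16 ± 7.43 TPM, moved above Msx1, at 7.29 ± 2.20 TPM, in 3 of 4 isolations. In KO cells after pro:BMP9, Dlx2 at 8.28 ± 4.32 TPM and Msx1 at 7.92 ± 1.95 TPM overlapped, and Dlx2 was the higher in 1 of 4 isolations. Atoh8 had the highest mean of the 5 genes in each of the 4 groups. In PBS-treated KO cells it stood at 12.1 ± 3.81 TPM, and its range overlapped that of Msx1 at 7.16 ± 2.16 TPM.

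**Figure D1:**
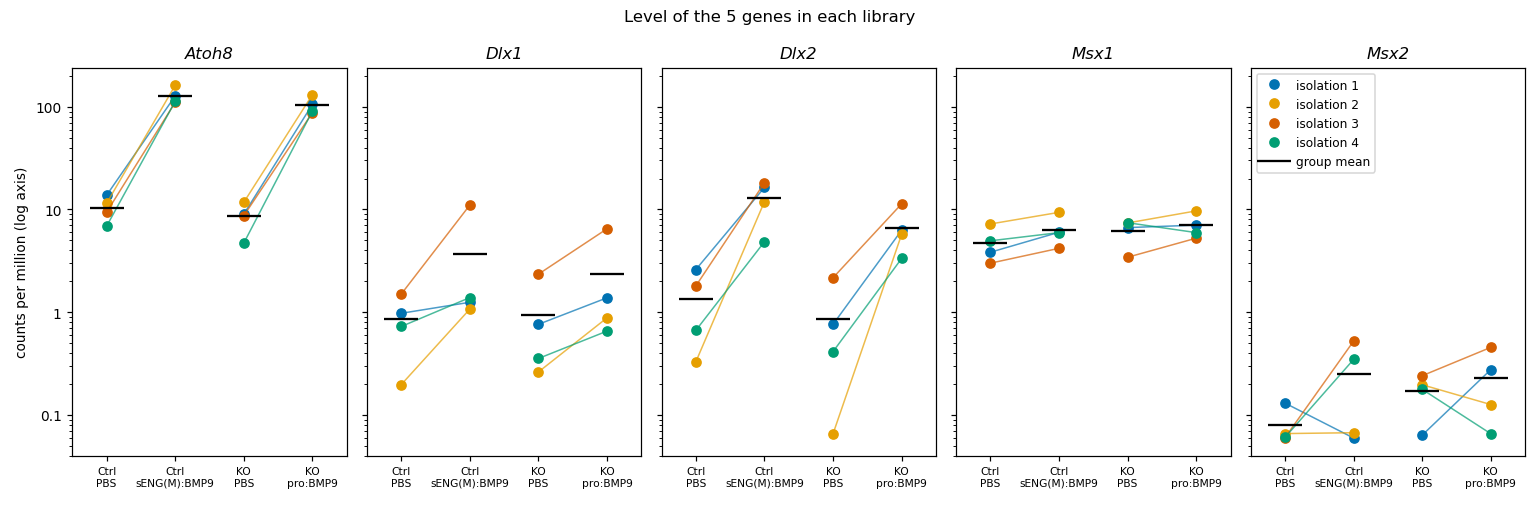
Counts normalised to library size with TMM factors (CPM, log axis) of the 5 genes in each of the 16 libraries, by group, with isolations joined within a genotype and bars at the group means. CPM is not corrected for gene length; Atoh8 and Dlx2 were higher in every ligand-treated library than in every PBS-treated library of the same genotype, whereas the ranges of Dlx1, Msx1 and Msx2 overlapped.

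The first question was which of these genes responded to ligand in each genotype. Raw counts entered edgeR's quasi-likelihood test in a fit blocked by isolation, with Benjamini-Hochberg adjustment over 15693 genes. In Ctrl cells, 3 of the 4 tested genes were past an adjusted p of 0.05, all of them higher after sENG(M):BMP9, against 9.69% of all genes in either direction and 5.86% higher and 3.83% lower. In KO cells the same 3 genes were higher after pro:BMP9, against 5.59% of all genes in either direction and 3.68% higher and 1.92% lower.

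The PBS-treated Ctrl libraries, listed from isolation 1 to isolation 4 here and throughout, held 212, 175, 157 and 114 counts of Atoh8. After sENG(M):BMP9 the same isolations had 2153, 2423, 1905 and 1960 counts. The KO libraries had 142, 180, 145 and 80 counts with PBS and 1534, 2090, 1354 and 1391 counts with pro:BMP9. Every ligand-treated library was thus far above every PBS-treated library, and isolation 4 was the lowest with PBS in both genotypes. Normalised expression rose from 10.4 ± 2.94 to 129 ± 23.7 CPM in Ctrl cells (mean ± SD, n = 4). The fold within isolations ran from 9.28 in isolation 1 to 16.4 in isolation 4. By edgeR the log2 fold change came to 3.64 ± 0.111 (estimate ± standard error, adjusted p = 8.06e-14). In KO cells Atoh8 rose from 8.56 ± 2.91 to 104 ± 19.9 CPM, with a log2 fold change of 3.62 (standard error 0.115, edgeR adjusted p = 2.16e-13). Isolation 4 again gave the largest fold, 19.3. By the size of the log2 fold change, Atoh8 was in place 4 of 15693 genes in Ctrl cells and in place 3 in KO cells.

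Dlx2 had 40, 5, 30 and 11 counts in Ctrl cells with PBS, and 276, 178, 313 and 84 counts after sENG(M):BMP9. KO libraries had 12, 1, 36 and 7 counts with PBS and 91, 91, 175 and 51 counts with pro:BMP9. Ligand-treated and PBS-treated libraries did not overlap in either genotype, and isolation 2 had the fewest PBS counts in both. In Ctrl cells Dlx2 rose from 1.35 ± 1.05 to 12.8 ± 5.95 CPM (mean ± SD, n = 4), or 3.26 ± 0.298 on the log2 scale (estimate ± standard error, edgeR adjusted p = 3.26e-07). In KO cells it rose from 0.851 ± 0.921 to 6.67 ± 3.37 CPM, or 2.98 ± 0.348 on the log2 scale (estimate ± standard error, edgeR adjusted p = 1.15e-05). Dlx2 was in place 8 of 15693 in Ctrl cells and place 6 in KO cells by log2 fold change. The fold was largest in isolation 2, at 36.3 in Ctrl cells. In KO cells of isolation 2 it rests on 1 PBS count, and the ratio of 86.2 has a 95% counting interval from 15.1 to 3440. The other 3 isolations gave folds of 6.31 to 10.1 in Ctrl cells and of 5.25 to 8.25 in KO cells. Without the replicate block, differences between isolations count as residual spread. In that fit the log2 fold changes were 3.24 and 2.95 and the edgeR adjusted p was 0.0516 in Ctrl and 0.177 in KO cells.

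Dlx1, the convergent neighbour of Dlx2, had 15, 3, 25 and 12 counts in PBS-treated Ctrl cells and 21, 16, 190 and 24 counts after sENG(M):BMP9. KO libraries had 12, 4, 39 and 6 counts with PBS and 20, 14, 100 and 10 counts with pro:BMP9. Isolation 3 was the highest in all 4 groups, and the groups overlapped in both genotypes. The gene was nevertheless higher with ligand in 4 of 4 isolations in Ctrl and in KO cells. The mean rose from 0.849 ± 0.542 to 3.69 ± 4.91 CPM in Ctrl cells (mean ± SD, n = 4). The log2 fold change was 1.84 (standard error 0.342, edgeR adjusted p = 0.000975). In KO cells the mean rose from 0.930 ± 0.968 to 2.35 ± 2.78 CPM, with a log2 fold change of 1.28 (standard error 0.354, edgeR adjusted p = 0.0384). Folds within isolations ran from 1.28 to 7.37 in Ctrl cells and from 1.81 to 3.37 in KO cells, apart from Ctrl cells of isolation 2, where the ratio of 16 to 3 counts was 5.41 with a 95% counting interval from 1.55 to 29.0. These responses depended on single isolations. Without replicate 3 the log2 fold change was 1.00 in Ctrl cells (edgeR adjusted p = 0.183) and 1.09 in KO cells (edgeR adjusted p = 0.263), and without replicate 2 it was 1.22 in KO cells (edgeR adjusted p = 0.160). Without the replicate block neither response passed, with edgeR adjusted p values of 0.832 and 1.00.

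Msx1 had 59, 110, 50 and 82 counts in PBS-treated Ctrl cells and 101, 140, 72 and 103 counts after sENG(M):BMP9. KO libraries had 105, 113, 57 and 126 counts with PBS and 102, 154, 81 and 91 counts with pro:BMP9. Groups overlapped widely, isolation 2 was the highest in 3 of the 4 groups and isolation 3 the lowest in each. In Ctrl cells Msx1 was at 4.75 ± 1.83 CPM with PBS and 6.38 ± 2.17 CPM with ligand (mean ± SD, n = 4), higher in 4 of 4 isolations. The log2 fold change was 0.43 with a 95% interval from 0.12 to 0.73 (edgeR adjusted p = 0.0764). In KO cells it was 0.17 with an interval from -0.12 to 0.46 (edgeR adjusted p = 0.723), positive in 3 of 4 isolations. The Ctrl response of Msx1 passed the threshold in 3 of 11 alternative fits, and the KO response in 0 of 11.

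Msx2 had 2, 1, 1 and 1 counts in PBS-treated Ctrl cells and 1, 1, 9 and 6 counts after sENG(M):BMP9. KO libraries had 1, 3, 4 and 3 counts with PBS and 4, 2, 7 and 1 counts with pro:BMP9. The counts overlapped in each genotype, and Msx2 did not pass the filter on low counts. Summed over the 4 isolations, 17 against 5 counts in Ctrl cells gave a ratio of 3.23 with a 95% counting interval from 1.15 to 11.2. In KO cells 14 against 11 counts gave 1.33, from 0.561 to 3.24. These intervals cover counting error only and not the spread between isolations. With no filter, the log2 fold change in Ctrl cells was 1.48 with an edgeR adjusted p of 0.660.

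**Figure D2:**
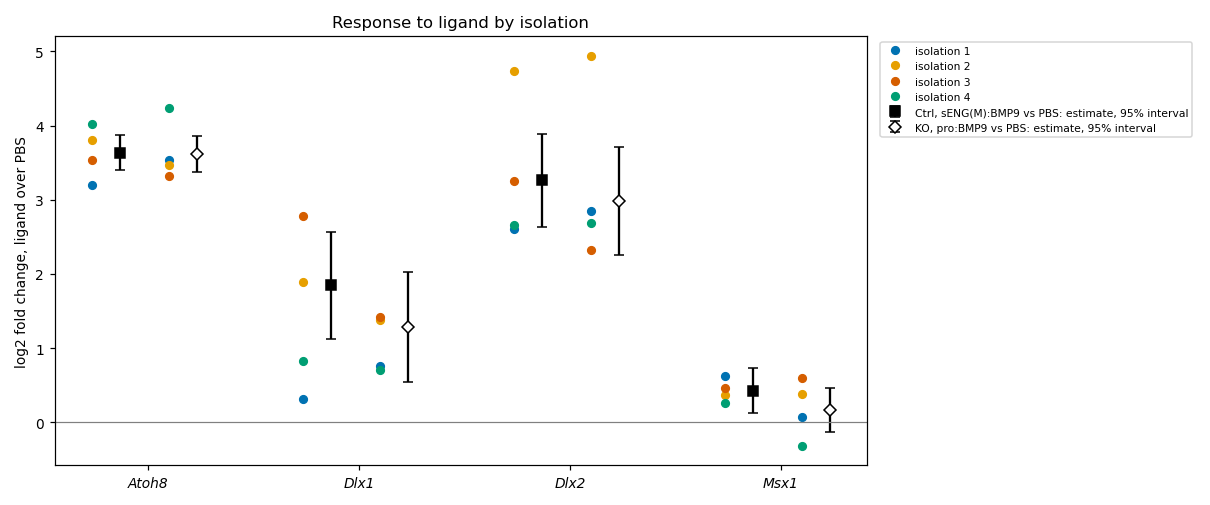
Log2 fold change of ligand over PBS for the 4 tested genes, with a coloured point for each isolation and the edgeR estimate with its 95% interval for Ctrl cells (filled squares) and KO cells (open diamonds). The intervals of Atoh8, Dlx2 and Dlx1 lie above 0 in both genotypes, and that of Msx1 reaches below 0 in KO cells.

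The genes were next compared with each other within the same libraries. The log2 response of Dlx2 was larger than that of Dlx1 in 4 of 4 isolations in Ctrl cells, by 0.47 to 2.84, and in 4 of 4 in KO cells, by 0.91 to 3.56. An exact two-sided sign-flip permutation test over the 4 isolations gave p = 0.125 in each genotype, which is the smallest p that n = 4 allows. Atoh8 responded more than Dlx2 in 3 of 4 isolations in each genotype, with mean differences of 0.33 ± 0.95 and 0.44 ± 1.32 on the log2 scale (mean ± SD), smaller than the spread. Isolation 2, with the fewest Dlx2 counts in PBS, was the exception in both genotypes.

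The isolations weighed on these genes to different extents. For Atoh8, the isolation held 2.42% of the sum of squares of log2 CPM over the 16 libraries and the group 96.7%. For Dlx2 the shares were 16.7% and 75.6%. For Dlx1 and Msx1 the isolation held most of it, at 65.0% and 67.9%, with 25.4% and 21.1% for the group. Dlx1 and Msx1 ran in opposite directions among the isolations: Dlx1 had its highest mean over 4 libraries in isolation 3 (3.59 TPM) and its lowest in isolation 2 (0.379 TPM), whereas Msx1 was lowest in isolation 3 (4.65 TPM) and highest in isolation 2 (9.27 TPM). Dlx2 in PBS was also lowest in isolation 2.

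Markers of cell types also differed between the isolations. The 10 endothelial markers summed to 2899 to 3039 TPM in isolation 3, against 4196 to 5979 TPM in the other 12 libraries. Pecam1 was at 450 TPM in isolation 3 and at 810 to 1045 TPM in the others. Isolation 3 had the highest summed fibroblast markers, at 310 to 389 TPM, with overlap with isolation 4. Not every tested fibroblast marker followed the sum. Col1a1 (226 TPM), Col3a1 (51.0 TPM) and Pdgfra (5.77 TPM) were highest in isolation 3. Col1a2 was highest in isolation 1 (57.8 TPM), and Dcn (92.6 TPM) and Lum (5.03 TPM) in isolation 4. The mural markers did not move together: Pdgfrb (62.7 TPM), Rgs5 (33.2 TPM) and Notch3 (78.4 TPM) were highest in isolation 3, whereas Kcnj8 (3.37 TPM) was lowest there, Abcc9 (2.06 TPM) was far under its level in isolations 1 and 2 (14.8 and 13.8 TPM), and Acta2 was highest in isolation 1 (185 TPM). Isolation 2 had the lowest fibroblast sum (38.6 to 45.2 TPM), the lowest mural sum (76.1 to 85.9 TPM) and the highest endothelial sum (5792 to 5979 TPM). For mural markers the highest sum was in isolation 1, at 208 to 366 TPM, a range that included isolation 3. The mesothelial sum differed most, with means of 424, 15.8, 293 and 57.0 TPM in isolations 1 to 4, and the epithelial sum had means of 314, 404, 174 and 134 TPM. Isolation 2 was thus lowest in the mesothelial sum and highest in the epithelial sum, the latter through Krt18 (400 TPM). The epithelial markers did not move together, as Krt8 (3.885 TPM) and Cdh1 (0.111 TPM) were lowest in isolation 2. The part of these marker levels in the Dlx1, Dlx2 and Msx1 values was not tested. Of the endothelial markers, Pecam1 (0.11) and Kdr (0.92) rose with ligand in Ctrl cells and Kdr (0.76) in KO cells, on the log2 scale. No mural, fibroblast, epithelial, mesothelial, leukocyte or lymphatic marker passed the threshold with ligand in either genotype, and summed levels with PBS and ligand overlapped: the fibroblast sum was 45.2 to 389 TPM in PBS-treated Ctrl cells and 45.2 to 372 TPM after sENG(M):BMP9, and the mural sum was 80.3 to 365 TPM and 76.1 to 366 TPM.

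**Figure D3:**
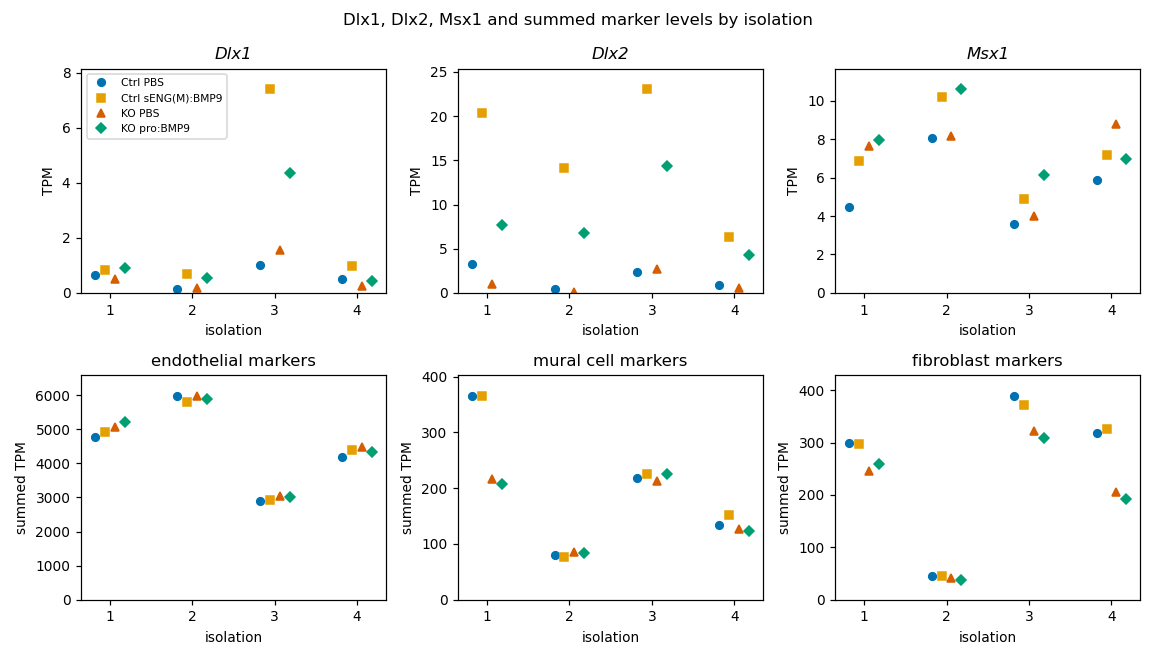
Levels of Dlx1, Dlx2 and Msx1 and summed levels of endothelial, mural cell and fibroblast markers (TPM, linear axes from 0) in each library, by isolation, with a symbol for each group. Isolation 3 has the highest Dlx1 and the lowest Msx1 and endothelial sum, and isolation 2 the lowest fibroblast and mural sums.

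KO and Ctrl cells were then compared with each other, in PBS and with ligand. Eng loss and 4-OH-tamoxifen cannot be told apart in either comparison, nor can genotype and ligand form in the comparison with ligand. In PBS, 0 of the 4 genes passed, against 0.0191% of all genes. Atoh8 in PBS-treated KO cells was at 65.4%, 102%, 92.5% and 68.5% of the Ctrl level in isolations 1 to 4, and the genotypes overlapped. Its log2 fold change was -0.29 (95% interval -0.59 to 0.01, edgeR adjusted p = 0.749). Dlx2 was at 29.3%, 19.9%, 120% and 62.1% of the Ctrl level, so isolation 3 went against the other 3. Its log2 fold change was -0.66 (-1.61 to 0.30, edgeR adjusted p = 0.838), and it was -0.11 without replicate 1 and -1.46 without replicate 3. For Dlx1 it was 0.01 (-0.83 to 0.85, edgeR adjusted p = 0.999). Msx1 was higher in KO cells in 4 of 4 isolations, by a log2 fold change of 0.40 (0.10 to 0.71), with an unadjusted p of 0.0121 and an adjusted p of 0.572 from edgeR.

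With ligand, 0 of the 4 genes passed between KO and Ctrl cells, against 0.255% of all genes (0.166% lower and 0.0892% higher in KO cells). Atoh8 in pro:BMP9-treated KO cells was at 82.7%, 81.1%, 79.3% and 80.3% of its level in the sENG(M):BMP9-treated Ctrl cells of isolations 1 to 4. The values of single libraries overlapped between the genotypes, but the 4 ratios lay close together. The log2 fold change was -0.31 (95% interval -0.49 to -0.12), with an unadjusted p of 0.00251 and an adjusted p of 0.145 from edgeR. Dlx2 was at 38.3%, 48.0%, 62.4% and 68.7% of the Ctrl level. It was lower in KO cells in 4 of 4 isolations, with overlap between libraries of different isolations. The log2 fold change of Dlx2 was -0.94 (95% interval -1.43 to -0.44), with an unadjusted p of 0.000847 and an adjusted p of 0.0867 from edgeR, in place 148 of 15693 by p-value. Both genes passed in 2 of the alternative fits, with no filter on low counts (edgeR adjusted p = 2.23e-06 for Atoh8 and 6.79e-11 for Dlx2) and with only the 8 ligand-treated libraries (0.0126 and 0.0177). For this comparison the fit with no filter called 517 genes and that of 8 libraries 55, against 40 in the filtered fit of all 16 libraries. Dlx1 had a log2 fold change of -0.55 (-1.17 to 0.06, edgeR adjusted p = 0.611), lower in KO cells in 3 of 4 isolations, and Msx1 of 0.15 (-0.14 to 0.43, edgeR adjusted p = 0.833).

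Fibroblast markers were also lower in KO cells. All 6 tested had negative log2 fold changes in PBS (median -0.37) and with ligand (median -0.39). With ligand, 2 of the 6 tested fibroblast markers (Col3a1, log2 fold change -0.47, and Dcn, -0.61) and 1 of 9 mural markers (Pdgfrb, -0.29) were past the threshold, and in PBS the same 2 fibroblast markers. The summed fibroblast level with ligand was 297, 45.2, 372 and 326 TPM in Ctrl cells of isolations 1 to 4, and 260, 38.6, 310 and 193 TPM in KO cells. It was lower in KO cells in 4 of 4 isolations, and likewise in 4 of 4 in PBS. The summed mural level was 76.1 to 366 TPM and 84.1 to 226 TPM. The part of these markers in the Dlx2 and Atoh8 values was not tested.

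**Figure D4:**
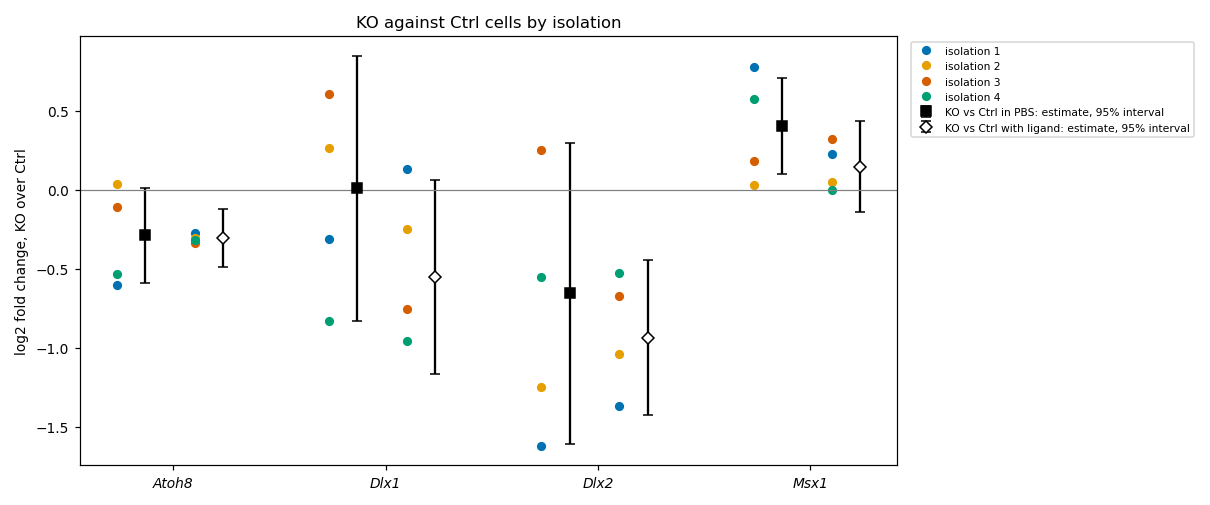
Log2 fold change of KO over Ctrl cells for the 4 tested genes, with a coloured point for each isolation and the edgeR estimate with its 95% interval in PBS (filled squares) and with ligand (open diamonds). The 4 points of Atoh8 with ligand lie between -0.33 and -0.27, and those of Dlx2 with ligand between -1.37 and -0.52.

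A level that is lower after ligand can also be lower before it, so the difference of the 2 ligand responses, KO minus Ctrl, was tested in the same fit. It passed for 0 of the 4 genes and for 0% of all genes, while 565 of 15693 genes had an unadjusted edgeR p under 0.05. DESeq2 with the isolation also called 0 genes. Other alternative fits did call genes: 52 with no filter on low counts, and 17 with quantile normalisation, ComBat and DESeq2 in sequence. For Atoh8 the difference was -0.02 on the log2 scale (95% interval -0.38 to 0.34, edgeR adjusted p = 1.00), with 2 isolations on each side of 0. The interval leaves room for a response in KO cells up to 0.38 weaker or 0.34 stronger on that scale. For Dlx2 it was -0.28 (-1.39 to 0.82, edgeR adjusted p = 1.00), with 3 isolations above 0 and isolation 3 at -0.92. For Dlx1 it was -0.56 (-1.63 to 0.50, edgeR adjusted p = 1.00), with 1 isolation above 0. Without replicate 3 both turned positive, at 0.42 for Dlx2 and 0.094 for Dlx1. For Msx1 it was -0.26 (-0.68 to 0.16, edgeR adjusted p = 1.00). The intervals for Dlx1 and Dlx2 were each over 2 log2 units wide.

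The close relatives of the 5 genes were near the limit of detection. Of 10 other Dlx, Msx and atonal-family genes and their antisense transcripts, 0 passed the filter on low counts. The gene with the most counts was Dlx3, which has roles in skin and bone, with 4, 2, 3 and 0 counts in PBS-treated Ctrl cells and 16, 10, 6 and 7 counts after sENG(M):BMP9. KO libraries had 0, 4, 3 and 4 counts with PBS and 6, 6, 4 and 5 counts with pro:BMP9. Ligand and PBS libraries did not overlap in Ctrl cells, and shared the value of 4 counts in KO cells. Summed over isolations the ratio was 4.12 in Ctrl cells (95% counting interval 1.96 to 9.68) and 2.0 in KO cells (0.920 to 4.58). In the fit with no filter, Dlx3 had a log2 fold change of 1.99 in Ctrl cells (standard error 0.628, edgeR adjusted p = 0.0286) and of 0.95 in KO cells (edgeR adjusted p = 0.944). Dlx3 reached the 10 counts needed for a relative to be named only in Ctrl cells after sENG(M):BMP9. Its interval and p-value for Ctrl cells are therefore not independent of that choice and do not test a response. The other 9 genes, among them Dlx5 and Dlx6, had at most 9 counts in any library. The antisense gene Dlx1as had its 9 counts in KO cells of isolation 3 after pro:BMP9, at most 5 counts in any other library and 0 in every PBS-treated KO library.

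Homeobox genes at large served as a background for Dlx1, Dlx2 and Msx1. With these 3 included, 82 homeobox genes were tested, and Dlx2 was in place 1 by log2 fold change in both genotypes. Dlx1 was in place 2 in Ctrl and place 4 in KO cells, and Msx1 in places 20 and 31. The members were chosen with earlier results of these data known, so these places are a description and not a test. Of the other 79 homeobox genes, 17 rose and 5 fell in ligand-treated Ctrl cells, while 10 rose and 3 fell in KO cells. Their median log2 fold changes were 0.03 and 0.04. Over all tested genes, 5.86% rose and 3.83% fell in Ctrl cells, and 3.68% rose and 1.92% fell in KO cells. Hoxa3, a patterning gene of the anterior body axis, had the lowest p of these 79 for the average of both ligand responses and rose by 1.80 in Ctrl and 1.68 in KO cells (edgeR adjusted p = 2.12e-10 and 1.02e-09). Hoxb2 (1.05 and 1.09), Hoxa4 (0.93 and 0.81) and the paired-type gene Prrx2 (1.17 and 0.75) also rose in both genotypes, all on the log2 scale. Of the genes that fell, named after their values were seen, Emx2, Hhex and Zhx3 fell in both genotypes, and Hlx and Zeb2 passed in Ctrl cells only. A test of whether the latter differ between genotypes is the difference of responses, which called 0 genes in the blocked fit.

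**Figure D5:**
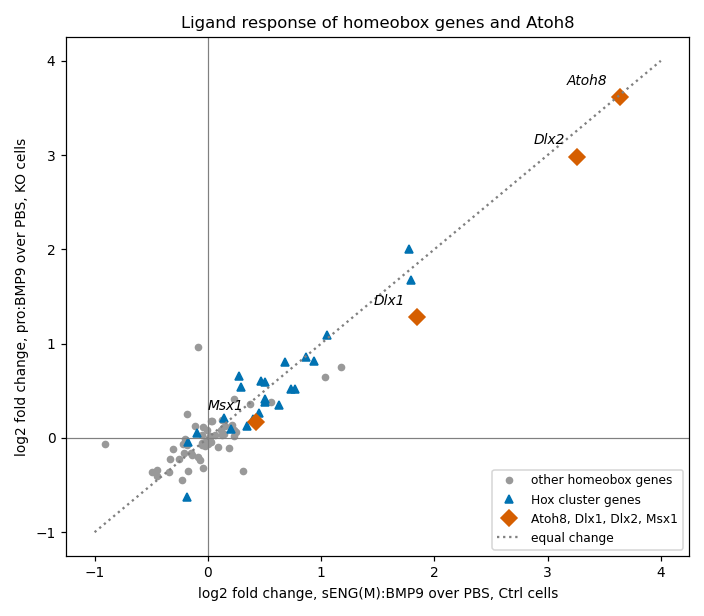
Log2 fold change with ligand in Ctrl cells (horizontal axis) and in KO cells (vertical axis) of the tested homeobox genes, with Hox cluster genes as triangles, other homeobox genes as dots and Atoh8, Dlx1, Dlx2 and Msx1 as labelled diamonds; the dotted line marks equal change. Dlx2 lies beyond every other homeobox gene on both axes.

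Beside these genes, 14 of 18 listed BMP-SMAD1/5 targets rose in each genotype, with medians of 1.51 in Ctrl and 1.47 in KO cells. The share of all tested genes that rose was 5.86% in Ctrl and 3.68% in KO cells. Smad6, which encodes an inhibitory SMAD, rose by 3.45 and 3.21 on the log2 scale. Smad7, the other inhibitory SMAD, rose by 2.87 and 2.85, and Hey1, a bHLH repressor, by 3.55 and 2.82. With ligand, 3 of the 18 were lower in KO than in Ctrl cells: Hey1 by the rule for named genes (-0.73, edgeR adjusted p = 0.00835), and Nog and Bmp4, named after their values were seen. Of 11 BMP9 receptors and SMADs, 6 rose in Ctrl and 4 in KO cells. Smad9 rose by 2.05 and 2.16 and Bmpr2, a type II receptor, by 0.64 and 0.51.

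Against the same shares of all tested genes (5.86% in Ctrl and 3.68% in KO cells), 5 of 13 listed partners of bHLH and homeodomain factors rose in each genotype. These were Id1, Id2, Id3 and Id4, which encode HLH proteins without a basic domain that hold bHLH factors off DNA, and Tle3, a co-repressor named after its values were seen. Id1 rose by 2.51 and 2.55, Id2 by 2.64 and 2.59, Id3 by 1.58 and 1.63 and Id4 by 1.90 and 1.31 on the log2 scale. The Id genes stand in both this list and that of the BMP targets. The E-protein genes Tcf3, Tcf4 and Tcf12, whose products pair with bHLH factors, were among the 8 that did not pass. Of 21 tested developmental factors known for responses to BMPs, 11 rose and 1 fell in Ctrl cells, and 10 rose and 2 fell in KO cells. Foxc2, a forkhead factor of lymphatic valves, rose by 3.19 and 2.77, and Snai1, a zinc-finger repressor, by 2.19 and 2.02. Mycn fell by 2.13 in Ctrl and by 1.30 in KO cells, and Gata3 fell by 0.26 in KO cells, both named after their values were seen.

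Genes with the most similar pattern were sought by the Pearson correlation of log2 CPM over the 16 libraries after the isolation mean was subtracted. Libraries of a group share a treatment, so the coefficients describe these libraries only. Nearest to Atoh8 were Pwwp2b (r = 0.993), Nuak1 (0.992), Smad6 (0.991), Tram2 (0.991) and Smurf2 (0.990). Nearest to Dlx2 were Dusp6 (0.971), Vasn (0.968), Zfp568 (0.965), Eogt (0.965) and Lrrc58 (0.964). Nearest to Dlx1 were Scx (0.936), Yaf2 (0.924), Nek6 (0.918), Tnfrsf1b (0.915) and Egr2 (0.911), and nearest to Msx1 was Ints3 (0.880), followed by Pald1, Sdc3, Ehd1 and Pdlim7 (0.866 to 0.835). Scx, which encodes a bHLH factor of tendon, rose by 1.32 on the log2 scale in Ctrl cells (edgeR adjusted p = 0.0156) and had a log2 fold change of 1.03 in KO cells (edgeR adjusted p = 0.122). Among the members, Atoh8 and Dlx2 were the most alike (r = 0.936), and Dlx1 correlated with Dlx2 at 0.844. Without subtraction of the isolation mean, the value for Atoh8 and Dlx1 was 0.455 and that for Dlx1 and Msx1 was -0.478.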

How the data were processed

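Polyadenylated RNA of 16 MLEC libraries, 4 isolations in each of 4 groups, was sequenced. The deposited table holds whole-number counts per gene, which the authors made with HISAT2 (2.0.5) and featureCounts (1.5.0-p3) on GRCm39 and, in their own tests, passed to DESeq2 (1.26.0). The annotation release and the strand setting of counting are not given in the sources used here. Groups and replicate numbers came from the sample labels, and no library was left out.

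Counts were tested with edgeR (4.0.16; R 4.3.3) by its quasi-likelihood test, with TMM factors, a filter on low counts (minimum 10, total 15), group and isolation as terms, all 16 libraries and Benjamini-Hochberg adjustment over 15693 genes at 0.05. The labels give a replicate number and a library name, and libraries of the same number share a name prefix across the groups. Each number was taken as an isolation because the study used independent isolations. Libraries of the same number deviated together (mean r 0.757 over 24 pairs, lowest 0.67). CPM used TMM factors, log2 values of single isolations a prior count of 2, and TPM the gene lengths in the table. Totals of 14869115 to 17242117 counts set the precision; genes with few counts were given as ratios with exact 95% binomial counting intervals. Alternatives were the fit without the block, DESeq2 (1.42.0), RLE factors, other filters, 8 libraries per comparison, omission of each isolation, and quantile normalisation, ComBat (sva 3.50.0; limma 3.58.1) and DESeq2 in sequence. The study names these steps but its ComBat batch is not given in the sources used here; isolation was assumed, so this is not the study's exact procedure. The members and gene lists were chosen with earlier results of these data known. Of each list at most 4 genes were named, those with the lowest p for the average of both ligand responses, as well as relatives with at least 10 counts in a library and the 5 genes most alike in pattern to each tested member.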

Additional observations from a re-analysis of the deposited data

Results flagged for a closer look

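In 3 of 20 combinations of gene and group, 1 library stood apart from the other 3 by a gap of most of the group's whole range (Dixon's test at the 95% level), where chance gives about 1 in 20 groups. For Dlx1 after sENG(M):BMP9 in Ctrl cells, isolation 3 was at 11 CPM and the others at 1.07 to 1.39 CPM. For Dlx1 after pro:BMP9 in KO cells, isolation 3 was at 6.49 CPM and the others at 0.654 to 1.38 CPM. For Msx2 in PBS-treated Ctrl cells, isolation 1 was at 0.13 CPM and the others at 0.06 to 0.0657 CPM, which is 2 counts against 1 count in each of the others.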

How the results depend on the processing

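The ligand responses of Atoh8 passed in 11 of 11 alternatives in both genotypes, with log2 fold changes of 3.52 to 3.79 in Ctrl and 3.46 to 3.71 in KO cells. When the replicate block was dropped, genes past the threshold numbered 167 for ligand in Ctrl cells, 91 for ligand in KO cells and 1 each for KO against Ctrl cells in PBS and with ligand, and 1 member (Atoh8) passed in each ligand response. With at least 10 counts in every library, Dlx1 and Dlx2 were not tested and 1 member passed in each ligand response. With no filter, 204 genes passed between genotypes in PBS, 517 with ligand, where 2 members passed, and 52 for the difference of responses. With quantile normalisation, ComBat (isolation assumed as the batch) and DESeq2, 1344 genes passed for ligand in KO cells, 169 between genotypes in PBS, 532 with ligand and 17 for the difference. DESeq2 with the isolation called 7 genes between genotypes in PBS and 141 with ligand. Fits of the 8 libraries of a comparison called 1 gene between genotypes in PBS, and 2 members with ligand. The cause of these changes was not tested. When 1 isolation was omitted, the counts ran from 1058 to 1392 for ligand in Ctrl cells, 573 to 745 in KO cells, 1 to 69 between genotypes in PBS and 6 to 175 with ligand; 2 to 3 members passed in each ligand response. For KO against Ctrl cells in PBS, Dlx1 had a log2 fold change of -0.12 with DESeq2, -0.19 with the ComBat sequence and -0.46 to 0.28 when 1 isolation was omitted, against 0.01. The difference of responses ran, on omission of 1 isolation, from -0.16 to 0.10 for Atoh8, -0.89 to 0.094 for Dlx1 and -0.68 to 0.42 for Dlx2. Msx1 passed with ligand in Ctrl cells with no filter, with the ComBat sequence and with 8 libraries. Depth limits Msx2, Dlx3 and the PBS levels of Dlx1 and Dlx2.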

Other observations

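The homeobox genes that rose with ligand were largely genes of the Hox clusters, a grouping made after the values were seen and therefore given without a test. In Ctrl cells 14 of 23 tested Hox genes rose and 0 fell, with a median log2 fold change of 0.50. In KO cells 9 of 23 rose and 0 fell, with a median of 0.51. Of the 56 other homeobox genes on the list, 3 rose and 5 fell in Ctrl cells, and 1 rose and 3 fell in KO cells. Over all tested genes, 5.86% rose and 3.83% fell in Ctrl cells, and 3.68% rose and 1.92% fell in KO cells.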
